A study of Mus musculus with 17 samples.

Results

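The imprinted growth network genes are genes read mainly from the maternal or the paternal chromosome copy that act together in fetal and early postnatal growth. The 10 members described here, H19, Igf2, Dlk1, Meg3, Peg3, Mest, Plagl1, Cdkn1c, Grb10 and Ndn, were taken by gene name from a deposited count table of 55421 genes, and each name matched a row. Total RNA was sequenced from lung cells grown from 17 mice, all of the genotype Ephb4f/f; Col1a2-CreERT2, in which the Cre recombinase is expressed under the Col1a2 promoter and acts only once 4-hydroxytamoxifen is given. Ephb4 CKO mice received 4-hydroxytamoxifen at 1 mg per day on 5 days from 4 weeks of age, and Ephb4 control mice carried the same alleles and received corn oil. At 6 weeks of age the mice were given bleomycin, a drug that injures the lung, into the trachea at a dose of 1.2 U/kg, and the PBS groups received PBS by the same route. Lungs were taken 14 days later, and cells were grown and passaged before RNA was collected. The groups were Ephb4 control PBS (4 mice), Ephb4 control bleomycin (4 mice), Ephb4 CKO PBS (5 mice) and Ephb4 CKO bleomycin (4 mice), with 1 library per mouse. Deletion was therefore limited to cells that used the Col1a2 promoter when the drug was given, and what was measured was a cultured population, not the lung itself.

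Imprinted genes carry a methylation mark set in the egg or the sperm that keeps one parental copy silent. Within this network the paternally read genes Igf2, Dlk1, Peg3 and Mest are mostly known as promoters of fetal growth, whereas the maternally read Cdkn1c, Grb10 and H19 are mostly known for restraining it. Most members are abundant in fetal tissue, including mesenchyme, and decline after birth. The counts carry no allele information, so parental origin was not measured here.

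Several members are neighbours in the genome (GRCm38). H19, a noncoding RNA gene, occupies chromosome 7 from 142575529 to 142578143 on the reverse strand, next to Igf2 from 142650766 to 142666816 on the same strand. Cdkn1c lies further along chromosome 7, from 143458339 to 143461050 on the reverse strand. Peg3 (6703892 to 6730431, reverse strand) and Ndn (62346569 to 62350262, forward strand) are also on chromosome 7. Dlk1 (109452823 to 109463336) and the noncoding RNA gene Meg3 (109541001 to 109571726) are neighbours on the forward strand of chromosome 12. Mest lies on chromosome 6 from 30723547 to 30748465, Plagl1 on chromosome 10 from 13060504 to 13131694, both on the forward strand, and Grb10 on chromosome 11 from 11930508 to 12038683 on the reverse strand. All positions are those of GENCODE M21.

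Promoter windows of 300 bases (250 before the annotated start and 50 after it) were found in RefSeq (GRCm38.p6) for 8 of the 10 members. H19 and Cdkn1c had no window in the table. Some members have several annotated starts, and for Meg3 and Grb10, with 2 windows each, the one that holds the motif is shown. The windows of 4 members are shown because these genes had the highest read levels or the clearest pattern between libraries, and they differ in base composition. Capitals mark 3 short motifs searched on both strands, GGGGCCCC (letters known to be bound by the protein made from Plagl1), TATAAA (the TATA box) and GGGCGG (the GC box). Overlapping matches are run together, and positions are offsets from the annotated start base, which is 0.
Meg3 chr12:109540746-109541045, forward strand: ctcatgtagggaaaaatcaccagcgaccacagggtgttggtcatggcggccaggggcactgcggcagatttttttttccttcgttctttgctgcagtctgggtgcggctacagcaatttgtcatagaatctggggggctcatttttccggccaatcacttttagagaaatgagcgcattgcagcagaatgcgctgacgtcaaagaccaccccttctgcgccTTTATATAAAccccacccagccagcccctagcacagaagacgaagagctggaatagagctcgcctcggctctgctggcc
Peg3 chr7:6730370-6730669, reverse strand: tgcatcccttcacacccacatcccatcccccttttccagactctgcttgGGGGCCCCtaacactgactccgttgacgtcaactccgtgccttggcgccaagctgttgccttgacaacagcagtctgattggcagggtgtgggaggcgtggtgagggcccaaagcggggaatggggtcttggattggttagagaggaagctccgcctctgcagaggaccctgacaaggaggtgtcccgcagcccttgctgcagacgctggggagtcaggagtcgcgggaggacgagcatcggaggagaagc
Grb10 chr11:12037371-12037670, reverse strand: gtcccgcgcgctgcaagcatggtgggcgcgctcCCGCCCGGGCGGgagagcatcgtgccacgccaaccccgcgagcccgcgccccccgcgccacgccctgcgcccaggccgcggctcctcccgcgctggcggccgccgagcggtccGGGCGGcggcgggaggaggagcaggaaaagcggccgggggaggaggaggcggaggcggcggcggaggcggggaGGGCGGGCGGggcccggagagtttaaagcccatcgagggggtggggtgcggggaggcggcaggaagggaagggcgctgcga
Ndn chr7:62348027-62348326, forward strand: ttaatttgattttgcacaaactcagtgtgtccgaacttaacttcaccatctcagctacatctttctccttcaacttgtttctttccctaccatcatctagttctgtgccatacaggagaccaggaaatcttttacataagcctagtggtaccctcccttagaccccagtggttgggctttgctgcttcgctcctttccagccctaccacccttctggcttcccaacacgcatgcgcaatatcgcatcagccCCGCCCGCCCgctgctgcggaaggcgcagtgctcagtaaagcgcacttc
The Meg3 window shown held TATAAA at offsets -29 and -25, as an overlapping match on both strands, and 13.6% of the 32851 windows of the table held this motif. The Peg3 window held GGGGCCCC at offset -201, a motif in 1.08% of all windows. The Grb10 window shown held 45 CG pairs, more than 98.1% of the windows, and 5 matches of GGGCGG. The second Grb10 window held 9 CG pairs and no GGGCGG, and the second Meg3 window held 1 CG pair and no TATAAA. The Ndn window held 2 overlapping matches of GGGCGG just after the start, at offsets 1 and 5, and this motif was found in 35.7% of all windows. A match is a description of letters and was not tested as a binding site.

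Libraries held 66540022 to 120554468 counts in total. Levels are given as CPM, the usual per-library scaling of counts, with library sizes normalised by TMM, and are not scaled for gene length unless stated. Ephb4, the targeted gene, was at 2.36 to 33.9 CPM in control PBS, 4.06 to 23.9 in CKO PBS, 13.3 to 66.0 in control bleomycin and 5.00 to 14.2 in CKO bleomycin libraries. On the log2 scale Ephb4 differed between CKO and control mice by -2.0 (SE 0.79) after bleomycin and by -0.73 (SE 0.72) after PBS, with adjusted p = 0.220 and 1.00 by edgeR's quasi-likelihood test, and the groups overlapped both times. Labelled as primary fibroblasts, the cultures differed widely in fibroblast markers. The summed level of 16 fibroblast markers was 7553 to 14260 CPM in control bleomycin, 41.4 to 7878 in control PBS, 88.6 to 2368 in CKO PBS and 75.1 to 2425 in CKO bleomycin libraries, and 4 of the 16 had no count in some libraries (Twist1 in 5, Tcf21 in 3, Postn and Fap in 1 each). The 19 macrophage markers summed to 1314 to 20510, 10100 to 45180, 22050 to 43200 and 22810 to 43310 CPM in the same order, and none of them was at 0 in any library. Xist and the sum of 4 Y-linked genes disagreed with the recorded sex in 3 libraries, control bleomycin mouse 2 and CKO bleomycin mice 1 and 2. The overlap of Ephb4 after bleomycin rested on control mouse 2 (13.3 CPM) and CKO mouse 1 (14.2 CPM). The other control bleomycin mice had 35.8 CPM or more. In cultures of mixed content, fewer cells of a type and less RNA per cell cannot be told apart.

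The level of 7 members was on average highest in control bleomycin mice, and that of the other 3 (Igf2, Dlk1 and Cdkn1c) in CKO bleomycin mice, where 1 mouse carried the mean. None of the members passed the test in any comparison, by edgeR or by DESeq2, which gave no adjusted p for H19 and Cdkn1c. Genes above 10 CPM in at least 2 libraries were tested (10481 genes), which kept H19, Meg3, Peg3, Grb10 and Ndn. Igf2, Mest, Plagl1 and Cdkn1c were tested in a fit over the 21009 genes of edgeR's own wider filter, and Dlk1 passed neither filter, so it has values only. At an adjusted p of 0.05 the share of genes called was 0% in all 5 comparisons (bleomycin versus PBS in control mice and in CKO mice, CKO versus control after bleomycin and after PBS, and the interaction), for the members as for all 10481 genes. DESeq2 called 166 of these genes for bleomycin versus PBS in control mice, 399 for CKO versus control after bleomycin and at most 1 in the other comparisons, with no member among them. With 1 exception, neighbouring groups in the order of mean level overlapped for every member. The exception was Grb10, for which the control bleomycin libraries lay above all others.

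**Figure D1:**
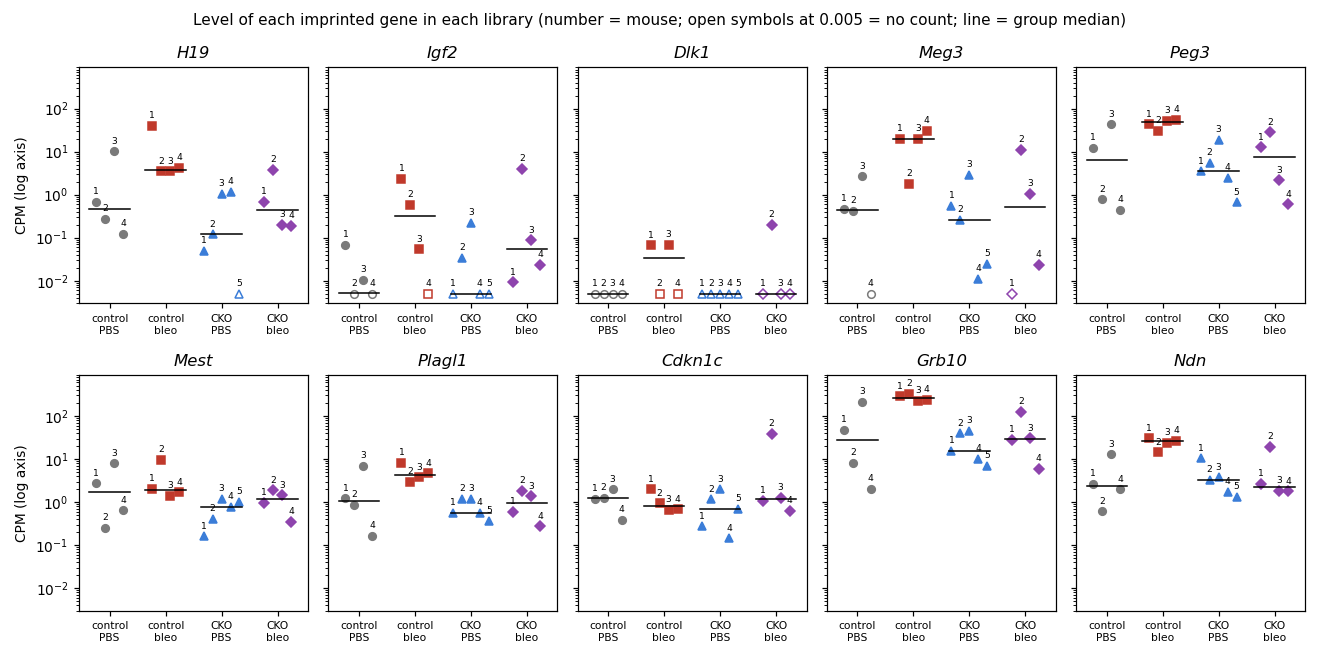
Level of each member in each library, in CPM on a log axis, by group. Each symbol is 1 mouse with its number, the line is the group median, and open symbols mark libraries without a count. Control bleomycin libraries lie high for Grb10, Peg3, Ndn and Plagl1, and mouse 3 of control PBS and mouse 2 of CKO bleomycin lie above the rest of their groups for most members.

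Grb10 encodes an adaptor protein that binds the insulin and IGF1 receptors and dampens their signal. It was the most abundant member per length, at a mean of 29.7 CPM per kb of exon in control bleomycin mice, against 6.46 for Ndn, 5.15 for H19 and 3.39 for Peg3. Its level was 286, 331, 225 and 237 CPM in control bleomycin mice 1 to 4. Control PBS mice were at 48.2, 8.24, 213 and 2.06 CPM, so mouse 3 came close to the bleomycin group and the other 3 did not. CKO PBS mice were at 15.3, 39.3, 44.6, 10.2 and 6.96 CPM, and CKO bleomycin mice at 27.7, 124, 30.2 and 5.90 CPM. The control bleomycin group did not overlap with control PBS or with CKO bleomycin. Grb10 had a log2 fold change of 1.99 (SE 1.11) for bleomycin versus PBS in control mice and -2.53 (SE 1.13) for CKO versus control after bleomycin, with adjusted p = 0.410 and 0.235 by edgeR's quasi-likelihood test.

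Peg3, a zinc-finger protein gene read from the paternal copy, followed a like order at a lower level. It was at 43.0, 30.9, 52.0 and 55.0 CPM in control bleomycin mice and at 12.1, 0.775, 43.1 and 0.447 CPM in control PBS mice. CKO bleomycin mice were at 12.5, 28.1, 2.16 and 0.595 CPM, all below the lowest control bleomycin mouse, and CKO PBS mice at 3.50, 5.45, 18.7, 2.49 and 0.665 CPM. Control PBS mouse 3 lay inside the range of the control bleomycin group, so the groups overlapped in that comparison. Peg3 had a log2 fold change of 1.68 (SE 1.30) for bleomycin versus PBS in control mice and -2.06 (SE 1.31) for CKO versus control after bleomycin, with adjusted p = 0.537 and 0.354 by edgeR's quasi-likelihood test.

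Ndn encodes necdin, a growth suppressor of the MAGE family that is read from the paternal copy. Its level was 30.0, 14.2, 24.2 and 27.0 CPM in control bleomycin mice and 2.66, 0.616, 12.9 and 1.99 CPM in control PBS mice, which did not overlap. CKO bleomycin mouse 2 was at 19.1 CPM, inside the control range, whereas mice 1, 3 and 4 were at 2.68, 1.86 and 1.79 CPM. The CKO PBS mice had 10.4, 3.30, 3.79, 1.76 and 1.32 CPM. Ndn had a log2 fold change of 2.39 (SE 0.97) for bleomycin versus PBS in control mice, with adjusted p = 0.323, and -1.91 (SE 0.96) for CKO versus control after bleomycin, with adjusted p = 0.262, by edgeR's quasi-likelihood test.

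Plagl1 encodes a zinc-finger transcription factor known to act on several other members of the network. It was at 8.07, 2.94, 3.73 and 4.66 CPM in control bleomycin mice and at 0.592, 1.82, 1.36 and 0.274 CPM in CKO bleomycin mice, which did not overlap. Control PBS mouse 3 reached 6.96 CPM, while mice 1, 2 and 4 of that group were at 1.24, 0.855 and 0.162 CPM. CKO PBS mice lay between 0.364 and 1.20 CPM. In the fit with the wider filter, the log2 fold change of Plagl1 for CKO versus control after bleomycin was -2.28 (SE 0.87), with adjusted p = 0.302 by edgeR's quasi-likelihood test.

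Counted without adjustment for multiple tests, 1 of the 5 members kept by the main filter (Ndn) was higher after bleomycin in control mice with p under 0.05, where 6.28% of all genes were, and 1 of 5 (Grb10) was lower in CKO than in control mice after bleomycin, where 9.18% of all genes were. Over the wider filter these shares were 5.4% and 7.34% of all genes, and Igf2 in the former comparison and Plagl1 in the latter joined the members. Cdkn1c was higher in CKO than in control mice after bleomycin at this limit, where 7.96% of the genes of the wider filter were. In the remaining comparisons none of the 5 members of the main filter passed the limit, where in either direction 1.99% of all genes did for CKO versus control after PBS, 0.964% for bleomycin versus PBS in CKO mice and 3.46% for the interaction. Over the wider filter, Mest was lower in CKO than in control mice after PBS (2.18% of all genes, either direction), Igf2 and Cdkn1c were higher after bleomycin in CKO mice (1.47%), and Cdkn1c passed for the interaction (3.39%). Groups did not overlap for 2 of the 5 members of the main filter, Grb10 and Ndn, when control bleomycin was set above control PBS. Of all genes of that filter 5.72% did so, and none of the other members did. Peg3 and Grb10, 2 of the same 5, lay lower in every CKO bleomycin mouse than in any control bleomycin mouse. Of all genes of the main filter 12.2% did so. Plagl1, which only the wider filter kept, did so too. Members such as H19 and Meg3 passed the main filter through the few libraries in which they were high, so no median over the members is given. The comparisons of bleomycin versus PBS in control mice and of CKO versus control after bleomycin share the control bleomycin libraries, so their opposite signs are not separate observations.

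**Figure D2:**
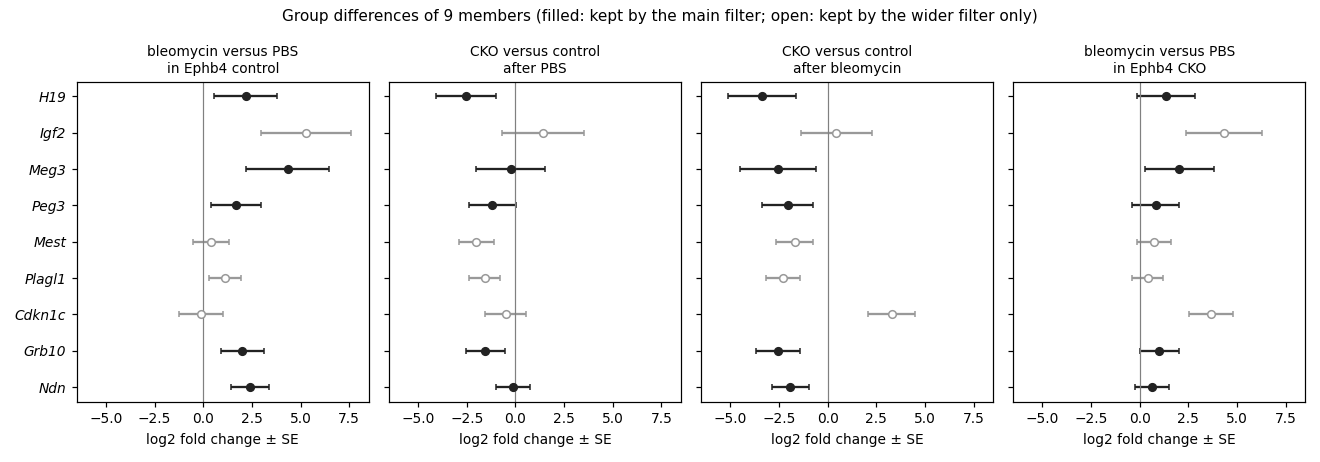
Log2 fold change of 9 members in 4 comparisons, with bars of 1 SE from edgeR. Filled points are members kept by the main filter and open points those kept by the wider filter, and none passed an adjusted p of 0.05.

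In 3 of the 4 groups, the culture with the most fibroblast marker RNA also had the highest level of most members, but not in control bleomycin mice. The mean log2 CPM of the 13 fibroblast markers kept (the fibroblast score) was 7.70 to 8.29 in control bleomycin libraries. In the other groups it was highest in control PBS mouse 3 (7.17), CKO PBS mouse 3 (5.60) and CKO bleomycin mouse 2 (6.28), and was 3.92 or less in every other library. Control PBS mouse 3 had the highest level in its group for 8 of 10 members, CKO PBS mouse 3 for 6 and CKO bleomycin mouse 2 for all 10. Among control bleomycin mice, the one with the highest score (mouse 2, 8.29) had the highest level of 2 of 10 members, Mest and Grb10, and the lowest of Meg3, Ndn, Plagl1, Peg3 and H19. Ndn in CKO PBS and Igf2 in control PBS mice were highest in mouse 1, whose score was 1.96 and 3.30. At the other end, control PBS mouse 4 (score -0.68) had Col1a1 at 0.365 CPM and Grb10 at 2.06 CPM, and CKO bleomycin mouse 4 (score -0.26) had Col1a1 at 1.56 CPM and Grb10 at 5.90 CPM. With the fibroblast score as a covariate, the log2 fold change of Grb10 was -0.04 for bleomycin versus PBS in control mice and -0.09 for CKO versus control after bleomycin, and that of Peg3 was -0.88 and 0.66. The score was highest in the control bleomycin group, so the covariate and that group cannot be told apart. After bleomycin, all 13 fibroblast markers kept were lower (median log2 fold change -3.70) and all 18 macrophage markers kept were higher (median 1.17) in CKO than in control mice, and none of them passed an adjusted p of 0.05. Markers of smooth muscle and pericytes were also highest in control bleomycin mice. Their 8 markers summed to 480.6 to 509.8 CPM in control bleomycin, 1.85 to 71.2 in control PBS, 6.72 to 63.4 in CKO PBS and 3.79 to 324.6 in CKO bleomycin libraries. All 5 that were kept were higher after bleomycin in control mice (median log2 fold change 4.01, beside 2.66 for the fibroblast markers) and lower in CKO than in control mice after bleomycin (median -2.20), and none passed an adjusted p of 0.05. For CKO versus control after PBS, 3 of these markers were higher and 2 lower (median 0.02). Of the fibroblast markers, 3 were higher and 10 lower in that comparison (median -1.45). All 5 members kept were lower there, but all 5 were higher without control PBS mouse 3. The part of cell content in the members' differences was not tested.

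**Figure D3:**
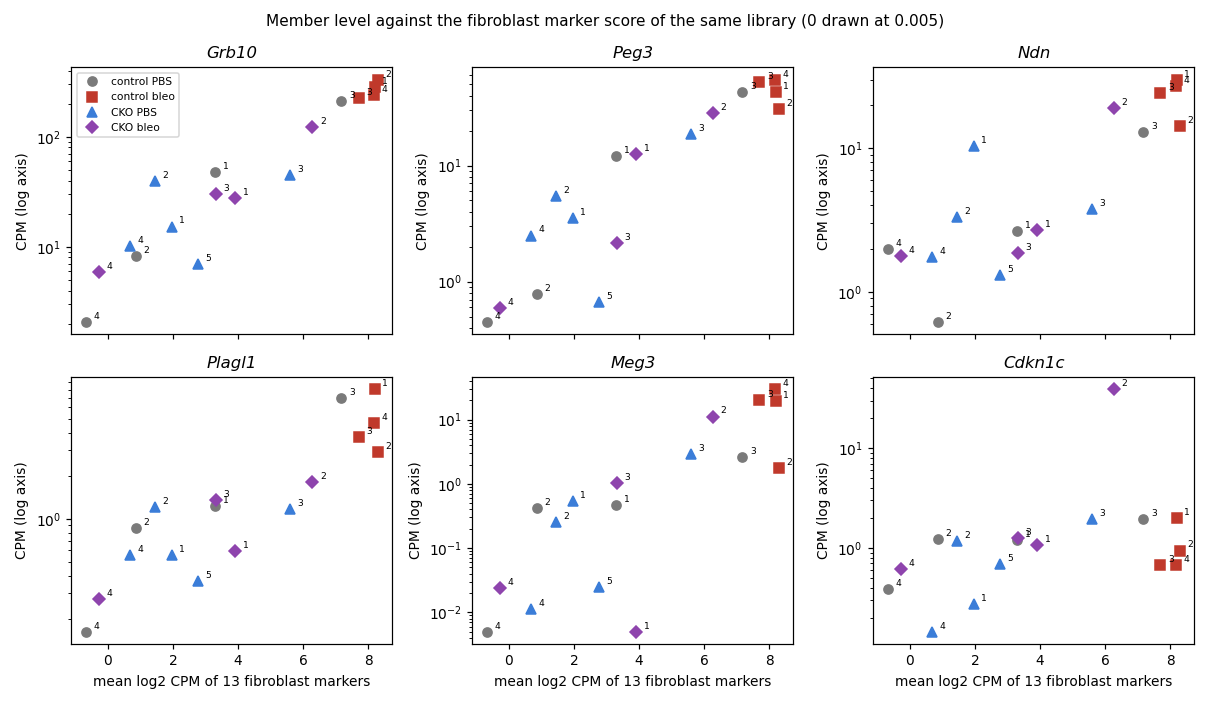
Level of 6 members (CPM, log axis) against the fibroblast score of the same library, the mean log2 CPM of 13 markers. Colours and shapes are the groups and numbers the mice. Across the groups Grb10 and Peg3 are mostly higher in libraries of higher score, though Peg3 does not follow the order of the scores within control bleomycin, Meg3 in control bleomycin mouse 2 lies far below the other control bleomycin libraries, and Cdkn1c stands out in CKO bleomycin mouse 2 only.

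The comparisons also rested on single mice. Without control PBS mouse 3, the log2 fold change of Grb10 for bleomycin versus PBS in control mice was 3.83 and that for CKO versus control after PBS was 0.27, against -1.55 with it. Without CKO bleomycin mouse 2, the log2 fold change of Grb10 for bleomycin versus PBS in CKO mice was -0.13, against 1.01 with it, and that of Ndn for CKO versus control after bleomycin was -3.50. When the 3 libraries with discordant sex genes were left out, the log2 fold change for CKO versus control after bleomycin was -3.83 for Grb10, -5.23 for Peg3, -3.93 for Ndn, -2.79 for Plagl1, -5.50 for Meg3 and -6.37 for H19, and that for bleomycin versus PBS in control mice was 1.88 for Grb10, 1.83 for Peg3 and 2.58 for Ndn, and none of these passed an adjusted p of 0.05. The control bleomycin mice all carried animal numbers of the 12 series, whereas 3 of the 4 control PBS mice were of the 11 series. With the discordant libraries left out, CKO bleomycin mice 3 and 4 remained, both of the 11 series, with fibroblast scores of 3.32 and -0.26. Genotype, series and culture content cannot be told apart in that fit. With only the 12 series, the log2 fold change for CKO versus control after bleomycin was -1.80 for Grb10, -1.11 for Peg3 and -1.09 for Ndn. The CKO bleomycin mice of that series were only mice 1 and 2, both with discordant sex genes. With the series as a covariate, that for bleomycin versus PBS in control mice was 1.33 for Grb10, 0.97 for Peg3 and 1.03 for Ndn.

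Meg3, the maternally read noncoding RNA of the Dlk1 cluster, was at 19.7, 20.0 and 30.0 CPM in control bleomycin mice 1, 3 and 4 and at 1.78 CPM in mouse 2. In control PBS mice it was at 0.475, 0.422, 2.64 and 0 CPM. CKO bleomycin mouse 2 was at 11.2 CPM and mice 1, 3 and 4 of that group at 0, 1.03 and 0.0238 CPM, the last from 2 counts. CKO PBS mouse 3 was at 2.87 CPM and the other 4 mice of that group were at 0.0112 to 0.544 CPM. Meg3 had a log2 fold change of 4.33 (SE 2.12) for bleomycin versus PBS in control mice and -2.55 (SE 1.95) for CKO versus control after bleomycin, with adjusted p = 0.364 and 0.435 by edgeR's quasi-likelihood test.

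Rian and Mirg, noncoding RNAs read from the same strand downstream of Meg3, followed the level of Meg3 across libraries. Rian was at 127, 95.4 and 145 CPM in control bleomycin mice 1, 3 and 4 and at 9.01 CPM in mouse 2. Mirg was at 10.5, 6.52 and 10.7 CPM in the same 3 mice and at 0.710 CPM in mouse 2. All 3 transcripts were thus low together in control bleomycin mouse 2, which had the highest fibroblast score of all libraries (8.29) and is 1 of the 3 with discordant sex genes. The log2 ratio of Meg3 to Rian counts in the control bleomycin group was -2.39 ± 0.20 (SD, n = 4). The ratio varied more in control PBS (-2.16 ± 0.81, SD, n = 4) and CKO PBS libraries (-2.35 ± 1.14, SD, n = 5). It varied most in CKO bleomycin libraries (-2.93 ± 1.86, SD, n = 4), where mouse 1 had 0 counts of Meg3 and 25 of Rian. Dlk1, the paternally read gene of the cluster and a surface ligand of the Notch type that holds back fat cell formation, had 8 and 9 counts in control bleomycin mice 1 and 3, 21 counts in CKO bleomycin mouse 2 and 0 in the other 14 libraries. Rtl1, also paternally read in this cluster, had 15 counts in CKO bleomycin mouse 2 and 0 elsewhere. A count of 0 in a library allows a level of up to 3 counts there, so Dlk1 was not detectable at this depth in these 14 libraries.

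Mest, a paternally read gene for a protein of the hydrolase fold that marks embryonic mesoderm, differed from Meg3 in which libraries were high. It was at 9.44 CPM in control bleomycin mouse 2 and at 2.06, 1.42 and 1.70 CPM in mice 1, 3 and 4. In control PBS mouse 3 it was at 7.89 CPM, against 2.73, 0.251 and 0.639 CPM in mice 1, 2 and 4. The library with the highest Mest level among control bleomycin mice was therefore the one with the lowest Meg3 level. CKO PBS mice lay between 0.161 and 1.19 CPM and CKO bleomycin mice between 0.345 and 1.87 CPM. The log2 fold change of Mest for CKO versus control was -2.0 (SE 0.89) after PBS and -1.69 (SE 0.95) after bleomycin, with adjusted p = 1.00 and 0.384 by edgeR's quasi-likelihood test. Without control PBS mouse 3 the former was -0.74, and without control bleomycin mouse 2 the latter was -0.59.

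**Figure D4:**
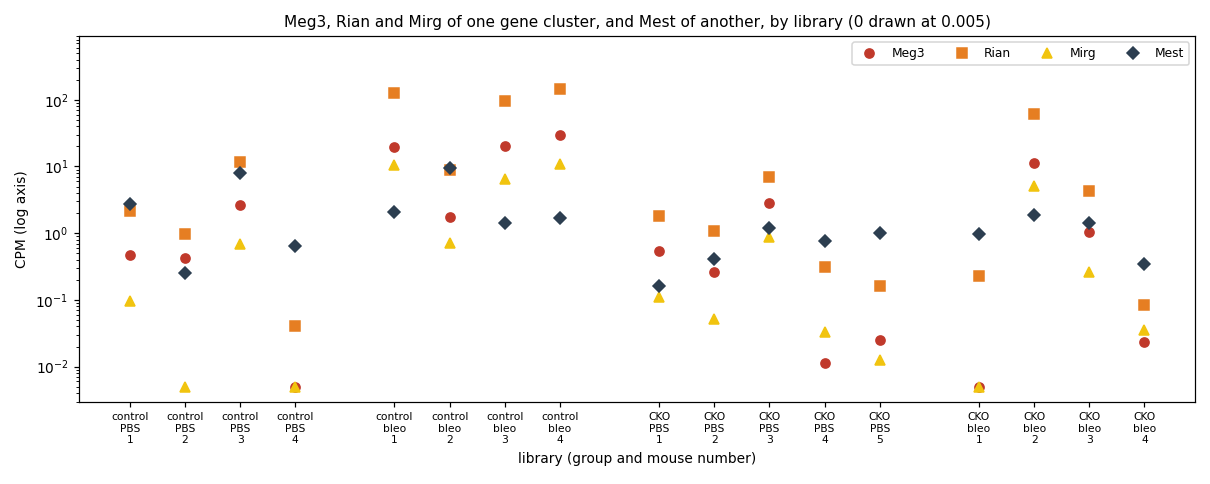
Level of Meg3, Rian and Mirg, noncoding RNAs of the Dlk1 cluster, and of Mest in each library (CPM, log axis, 0 drawn at 0.005). Within control bleomycin the 3 cluster RNAs are lowest and Mest is highest in mouse 2.

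H19, a maternally read noncoding RNA that also holds the precursor of a microRNA (Mir675), was at 39.6 CPM in control bleomycin mouse 1 and at 3.45, 3.47 and 4.13 CPM in mice 2 to 4. Control PBS mouse 3 was at 10.2 CPM, and mice 1, 2 and 4 were at 0.679, 0.274 and 0.122 CPM. CKO bleomycin mouse 2 was at 3.82 CPM, and mice 1, 3 and 4 were at 0.676, 0.199 and 0.191 CPM. CKO PBS mice were at 0.0494, 0.120, 1.06, 1.16 and 0 CPM. One library thus set most of the control bleomycin mean of 12.7 ± 18.0 CPM (SD, n = 4), which was 3.68 CPM without it. H19 had a log2 fold change of 2.17 (SE 1.64) for bleomycin versus PBS in control mice and -3.37 (SE 1.73) for CKO versus control after bleomycin, with adjusted p = 0.530 and 0.267 by edgeR's quasi-likelihood test. Without control bleomycin mouse 1 these were 0.40 and -1.57. That library also had the lowest macrophage score of all libraries (3.82, against 6.71 or more in the other 16).

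Igf2, the paternally read growth factor gene next to H19 whose protein signals through the IGF1 receptor, was near the limit of detection in most libraries. It had 278, 65, 7 and 0 counts in control bleomycin mice 1 to 4 and 1, 419, 7 and 2 counts in CKO bleomycin mice. PBS mice had 19 counts at most. The value is uncertain because Gm49394, an overlapping gene model on the same strand, shares 3596 exon bases with Igf2, and the counting divides coverage between them. Igf2 was above 3 counts in 7 libraries, Gm49394 in 11 and their sum in 14 of 17. Control bleomycin mouse 4, for example, had 0 counts for Igf2 and 64 for Gm49394. The summed level was 0.305 to 2.33 CPM in control bleomycin, 0 to 0.504 in control PBS, 0.0627 to 1.01 in CKO PBS and 0.0238 to 3.98 in CKO bleomycin libraries, which overlapped. The log2 fold change for bleomycin versus PBS in control mice was 5.28 (SE 2.31) for Igf2 alone and 2.48 for the sum, with adjusted p = 0.405 and 0.488 by edgeR's quasi-likelihood test.

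Cdkn1c encodes p57, an inhibitor of cyclin-dependent kinases that is read from the maternal copy and halts the cell cycle. As for H19 in control bleomycin mouse 1, 1 library stood apart from all others. CKO bleomycin mouse 2 had 4117 counts, or 39.1 CPM, whereas mice 1, 3 and 4 of that group were at 1.07, 1.27 and 0.619 CPM. Control bleomycin libraries lay between 0.672 and 1.98 CPM, control PBS between 0.386 and 1.96 CPM and CKO PBS between 0.145 and 1.97 CPM, so no group stood apart without that mouse. The log2 fold change of Cdkn1c for CKO versus control after bleomycin was 3.29 (SE 1.21), with adjusted p = 0.302 by edgeR's quasi-likelihood test, and was -0.13 without CKO bleomycin mouse 2. For bleomycin versus PBS in CKO mice it was 3.66 (SE 1.12, adjusted p = 1.00 by edgeR's quasi-likelihood test) and was 0.24 without that mouse. The same library is 1 of the 3 with discordant sex genes.

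Neighbours of a cluster were also compared within a library. Depth does not cancel from such a ratio where 1 gene has no count, as for Dlk1 in 14 libraries, because the value then rests on the 0.5 added. The log2 ratio of H19 to Igf2 counts (0.5 added to each) was 5.55 ± 3.05 (SD, n = 4) in control bleomycin and 2.35 ± 2.46 (SD, n = 4) in CKO bleomycin libraries. That of Meg3 to Dlk1 was 9.34 ± 2.12 (SD, n = 4) and 3.87 ± 3.33 (SD, n = 4). The Meg3 to Dlk1 ratio differed by -5.47 between CKO and control after bleomycin, with p = 0.0286 in a 2-sided exact permutation test, the smallest p that 4 against 4 mice allow, and 0.229 after Benjamini-Hochberg adjustment over the 8 tests of both ratios. The other 7 tests gave adjusted p of 0.349 to 0.914 (exact permutation tests). Where Dlk1 had no count, this ratio mainly restates the level of Meg3. Meg3 itself overlapped between these groups, at 11.2 CPM in CKO bleomycin mouse 2 and 1.78 CPM in control bleomycin mouse 2. The ratio of CKO bleomycin mouse 2 (5.77) also rests on its 21 counts of Dlk1, so the separation depends on low counts.

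Other imprinted genes lay on both sides of 0. Of 45 listed, 24 were kept by the filter, and for bleomycin versus PBS in control mice 14 were higher and 10 lower (median log2 fold change 0.20, beside -0.06 over all genes). The genes with the smallest p there were Rian (4.67, SE 1.92), Peg10 (2.82, SE 1.19) and Mirg (5.18, SE 2.23). Peg10, a gene derived from a retrotransposon and needed in the placenta, was at 17.5 to 18.9 CPM in control bleomycin and 0.112 to 5.33 CPM in control PBS mice, which did not overlap. Over all genes tested, 5.72% lay higher in every control bleomycin mouse than in any control PBS mouse. For CKO versus control after bleomycin 10 were higher and 14 lower (median -0.16), and those with the smallest p were Tssc4 (-0.51, SE 0.19), Inpp5f (0.57, SE 0.26) and Copg2 (0.37, SE 0.17). For bleomycin versus PBS in CKO mice 16 were higher and 8 lower, and Tnfrsf23 had the smallest p (-1.12, SE 0.45). None passed an adjusted p of 0.05 by edgeR's quasi-likelihood test.

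Genes that keep imprints and those that take the members' signals were read from further lists. Of 8 genes of imprint maintenance, 6 were kept. For bleomycin versus PBS in control mice 2 of them were higher and 4 lower. For CKO versus control after bleomycin 4 were higher and 2 lower. Dnmt3a, a DNA methyltransferase, had a log2 fold change of -1.45 (SE 0.61) for bleomycin versus PBS in control mice and 1.62 (SE 0.62) for CKO versus control after bleomycin, and Trim28, a corepressor that protects imprints, had -0.71 (SE 0.26) in the latter comparison. Dnmt3a was at 33.2 to 57.0 CPM in control bleomycin and 55.0 to 212 CPM in CKO bleomycin mice, which overlapped narrowly. Of 11 partners (receptors, RNA-binding proteins and other genes tied to the network), 8 were kept. Of these partners, 5 were higher and 3 lower for bleomycin versus PBS in control mice. For CKO versus control after bleomycin 4 were higher and 4 lower (median log2 fold change -0.12). Irs1, which carries the signal of the insulin and IGF1 receptors that Grb10 dampens, was at 22.1 to 48.2 CPM in control bleomycin and 0.381 to 14.9 CPM in CKO bleomycin mice, which did not overlap, with a log2 fold change of -2.64 (SE 1.12). Over all genes tested, 12.2% lay lower in every CKO bleomycin mouse than in any control bleomycin mouse. Hmga2, a chromatin protein of fetal growth, had 2.30 (SE 1.03) for bleomycin versus PBS in control mice. None of these passed an adjusted p of 0.05 by edgeR's quasi-likelihood test.

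The genes whose order over the 17 libraries was most like that of each member were ranked by Spearman's rho of log2 CPM over the genes tested, as a description of libraries that share cell content and depth. Grb10 was most like Ryk (0.988), Arhgef25 (0.985) and Parva (0.983). Peg3 was most like Gm38211 (0.973), Lrch2 (0.971) and Adamts12 (0.966), and Plagl1 was most like Gpx8 (0.968), Snhg18 (0.966) and Ckap2 (0.963). For Meg3 the list opened with Mirg (0.963) and Rian (0.958) of its own cluster, then Cpt1c (0.956). Ndn was most like Arhgap23 (0.949), Acat3 (0.946) and Mbtps1 (0.944), and H19 like Prkab2 (0.922), Meis1 (0.907) and Gle1 (0.902). Cdkn1c was most like Fam117a (0.931), Vamp5 (0.922) and Gm8113 (0.914). The highest values were lower for Mest (Fibin 0.885, Pknox2 0.877, Ednra 0.875) and Igf2 (Ppm1d 0.846, Sned1 0.784, Crip2 0.770). Igf2 was at 3 counts or fewer in 10 of the 17 libraries, so its order there rests partly on library size. Between members rho was 0.934 for Grb10 and Plagl1, 0.929 for Grb10 and Peg3 and 0.282 for Cdkn1c and Ndn. Dlk1 had too few libraries with a count.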

How the data were processed

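Gene counts were deposited by the authors without normalization. They trimmed reads with cutadapt (1.18 in the submitters' processing notes), aligned them to GRCm38 with HISAT2 2.1.0 and estimated transcripts with StringTie, whose script turns coverage into whole-number counts per gene, so overlapping gene models share coverage. The libraries were strand-specific, ribosome-depleted total RNA. All 17 columns matched a labelled mouse. Replicates are mice numbered in accession order and are not paired.

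CPM was computed from the counts after TMM scaling. Those genes were kept that exceeded 10 CPM, before scaling, in 2 or more libraries (10481 of 55421). Comparisons were tested by quasi-likelihood in edgeR 4.0.16 under R 4.3.3, fitting the 4 group means to the 17 libraries together, with Benjamini-Hochberg adjustment within a comparison at 0.05. The code was tested on simulated data. Members that this filter left out were tested in a fit over the 21009 genes kept by edgeR's filterByExpr. Each standard error was obtained by dividing the fold change by the square root of F. The authors used a batch term, which could not be repeated because the batch of a library is not given in the sources used here. Floors were set at 3 counts and cover counting error only.

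All 10 members are named with their values. Of the other imprinted genes, up to 4 with the smallest p under 0.05 before adjustment in a comparison are named, as are the 3 genes most like each member, and the other genes were named after their values were seen. The members and lists were chosen with earlier results of these data known. Alternatives were DESeq2 1.42.0, limma voom 3.58.1, RLE scaling, other filters, fewer groups, covariates (sex, animal number series, fibroblast score, column runs), library sizes without 8 abundant noncoding genes, and leaving out libraries.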

Additional observations from a re-analysis of the deposited data

Results flagged for a closer look

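In 16 of the 40 sets formed by 10 members and 4 groups, 1 library lay far from the rest of its group, its gap to the nearest mouse being more than 0.829 (4 mice) or 0.710 (5 mice) of the group's range. For normally distributed values about 1 set in 20 would be picked out by chance. CPM values are skewed, with zeros, and the chance rate for them was not computed. The same libraries recur, so these are not separate events. CKO bleomycin mouse 2 stood above its group for H19 (3.82 CPM), Igf2 (3.98), Dlk1 (0.200), Meg3 (11.2), Cdkn1c (39.1) and Ndn (19.1). Control PBS mouse 3 did so for H19 (10.2 CPM), Plagl1 (6.96) and Ndn (12.9). CKO PBS mouse 3 did so for Igf2 (0.219 CPM), Meg3 (2.87) and Peg3 (18.7). Each of these 3 mice had the highest fibroblast score of its group, and the part of cell content in the values was not tested. Control bleomycin mouse 1 stood apart for H19 (39.6 CPM) and control bleomycin mouse 2 for Mest (9.44). CKO PBS mouse 1 stood apart for Ndn (10.4 CPM), and control PBS mouse 1 for Igf2 (0.0679 CPM, from 5 counts).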

How the results depend on the processing

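All 10 members but Dlk1 gave 45 log2 fold changes over the 5 comparisons, each recomputed under the alternatives. Of the 1362 values, 1295 had the same sign and 67 the opposite sign, and no value passed an adjusted p of 0.05. DESeq2 without a covariate gave no adjusted p for H19 and Cdkn1c. The number of members called was 0 under every alternative run, in each comparison, although DESeq2 called 166 and 399 of all genes for bleomycin versus PBS in control mice and CKO versus control after bleomycin. The sign was opposite with the fibroblast score as a covariate for bleomycin versus PBS in CKO mice H19 (-0.35), Peg3 (-0.58), Plagl1 (-0.29), Grb10 (-0.34) and Ndn (-0.34), for the interaction Igf2 (2.62), Meg3 (0.20), Peg3 (0.30) and Plagl1 (0.058), for bleomycin versus PBS in control mice Peg3 (-0.88), Mest (-1.18), Plagl1 (-0.35) and Grb10 (-0.037), for CKO versus control after PBS Peg3 (0.36), Grb10 (0.22) and Ndn (0.63), for CKO versus control after bleomycin Peg3 (0.66) and Mest (0.23). The sign was opposite with only the 11 series for bleomycin versus PBS in CKO mice H19 (-1.94), Igf2 (-0.37), Meg3 (-0.90), Peg3 (-2.43), Mest (-0.17), Grb10 (-0.22) and Ndn (-0.35). The sign was opposite with the 3 libraries of discordant sex genes left out for bleomycin versus PBS in CKO mice H19 (-1.31), Meg3 (-0.51), Peg3 (-2.19), Grb10 (-0.41) and Ndn (-1.21), for CKO versus control after bleomycin Igf2 (-3.85) and Cdkn1c (-0.26), for bleomycin versus PBS in control mice Mest (-0.70). The sign was opposite by limma voom for CKO versus control after bleomycin Igf2 (-0.41), for CKO versus control after PBS Peg3 (0.078) and Ndn (0.24), for the interaction Mest (-0.21). Leaving out 1 mouse at a time gave both signs for CKO versus control after PBS H19 (-3.18 to 0.42), Igf2 (-1.20 to 3.44), Meg3 (-2.09 to 1.31), Peg3 (-2.24 to 0.49), Plagl1 (-1.96 to 0.056), Grb10 (-1.95 to 0.27), Ndn (-0.87 to 1.25), for bleomycin versus PBS in CKO mice H19 (-0.43 to 1.98), Igf2 (-0.34 to 6.94), Meg3 (-1.08 to 3.86), Peg3 (-0.28 to 1.85), Plagl1 (-0.049 to 0.72), Grb10 (-0.13 to 1.39), Ndn (-0.96 to 1.33), for the interaction H19 (-3.77 to 1.01), Igf2 (-5.62 to 1.65), Peg3 (-2.53 to 0.17), Mest (-0.94 to 1.42), for CKO versus control after bleomycin Igf2 (-4.22 to 2.23), Cdkn1c (-0.13 to 3.76), for bleomycin versus PBS in control mice Mest (-0.70 to 1.66), Cdkn1c (-0.59 to 0.23). The cause was not tested.

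With 5 reads added in place of 0.5, the difference in the log2 ratio of H19 to Igf2 for bleomycin versus PBS in control mice turned from -0.15 to 1.00, and that of Meg3 to Dlk1 for bleomycin versus PBS in CKO mice from -0.99 to 0.19. Leaving out 1 mouse at a time, the former ratio's difference ran from -1.51 to 1.06 in control mice and from -1.68 to 0.60 in CKO mice, and the latter's from -2.26 to 0.73 for CKO versus control after PBS and from -2.16 to 0.30 for bleomycin versus PBS in CKO mice. No paired analysis was possible because the labels give the mice no replicate numbers. The limits are groups of 4 or 5 mice, a spread between cultures that moved with marker genes, a sequencing run that is not named for each library, and counts near 0 for Igf2 and Dlk1. Leaving out the libraries of discordant sex genes, the runs of columns as a covariate and the sum of Igf2 and Gm49394 were added after the data had been seen.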

Other observations

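Further imprinted transcripts are given here without comparison. Slc38a4, an amino acid transporter gene read from the paternal copy, was at 32.1, 3.53, 14.2 and 19.1 CPM in control bleomycin mice 1 to 4, with mouse 2 lowest as for Meg3. Sgce, which shares a promoter region with Peg10, was at 20.7, 20.7, 13.3 and 15.97 CPM in the same mice, so mouse 2 was not low for it. Zim1, a neighbour of Peg3 read from the maternal copy, was at 0.554, 0.440, 1.93 and 2.78 CPM there and at 0.77 CPM or less in the other 13 libraries, 8 of which had no count. Dcn, imprinted in mouse placenta and a fibroblast matrix gene, was at 780 CPM in CKO PBS mouse 1, where the fibroblast score was 1.96 and Col1a1 was at 2.98 CPM. Ndn was highest of the CKO PBS group in that same mouse.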
